A study of Mus musculus with 6 samples.

Results

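The 10 genes described here encode carriers that bring peptides, glutamine and other neutral amino acids across cell membranes: Slc15a1, Slc38a1, Slc38a2, Slc38a3, Slc38a4, Slc7a5, Slc7a8, Slc3a2, Slc6a19 and Slc6a14. They were chosen by name, and each was found by its Ensembl identifier among the 54281 genes of the deposited table. All libraries came from GLUTag cells, a murine L-cell line that secretes GLP-1 and was derived from a colonic tumour of transgenic mice. The cells were untreated, and had grown for 48 h in DMEM with 1 g/L glucose, GlutaMAX and 10% FBS, with 0.4% Matrigel. There were 3 libraries of passage 23 on plate 1 and 3 of passage 27 on plate 2, so that plate and passage cannot be told apart. Nothing in the labels says that the wells of a plate were separate cultures, and p-values then measure only the spread between these wells. QuantSeq reads start near the 3′ end of polyadenylated RNA, with 1 fragment for each molecule. Levels are CPM, a gene's count per 1000000 counts of the library, and compare genes with no division by length.

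Neutral amino acids enter cells through carriers that divide the work between them. Members of the SLC38 family use the sodium gradient to concentrate glutamine, alanine and other small neutral amino acids, and those amino acids are then exchanged for leucine and other large ones by heteromers of the heavy chain encoded by Slc3a2 (CD98) with a light chain of the SLC7 family. In the small intestine, enterocytes take up di- and tripeptides through the proton-coupled carrier encoded by Slc15a1 (PEPT1) and neutral amino acids through the sodium-coupled carrier encoded by Slc6a19, and peptides and amino acids in the lumen are stimuli for GLP-1 release from L-cells. GlutaMAX supplies glutamine as a dipeptide with alanine.

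Library totals lay between 21399987 and 36488198 counts. A gene without a count may still have had up to 3 of them, which is 0.0822 to 0.140 CPM depending on the library and covers counting error only. On plate 2 the columns match no single replicate number, and these libraries are called low-depth, mid-depth and high-depth here, by their totals of 28083507, 30914501 and 36488198. The mid-depth library stands apart from the rest: its highest Pearson's r with another library, on log2(CPM + 1) across genes, was 0.991, against 0.996 to 0.997 for the others. A single transcript, Bc1, took 9.74% to 11.97% of the counts on plate 1 and 3.44% to 4.77% on plate 2. All 11 enteroendocrine markers read here had at least 1 CPM in every library, with a summed level of 5898 to 7958 CPM, led by Gcg at 3416 ± 771 CPM (SD, n = 6), then Cck, Neurod1 and Chgb. Of 11 enterocyte markers, 2 did, Cdx2 with 56.0 ± 3.87 CPM and Vil1 with 2.13 ± 0.735 CPM (SD, n = 6), while Alpi and Apoa1 were under 1 CPM on average and Fabp2 and Apob were without counts throughout. The summed enterocyte markers lay between 54.5 and 63.9 CPM, nearly all of it Cdx2, a transcription factor of the whole intestinal epithelium.

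Start sites of 4 members are shown because these genes span the range of levels, from the 2 high members with a promoter entry to one at a few counts and one without any. Each line is the RefSeq window of 300 bases on GRCm38.p6, from 250 before to 50 after an annotated start, read 5′ to 3′ on the strand of the gene, with CpG dinucleotides in capitals. For Slc3a2 this start lies inside the gene, whose 5′ end on the minus strand is at 8723369.
Slc38a2 (chr15:96699679-96699978, minus strand): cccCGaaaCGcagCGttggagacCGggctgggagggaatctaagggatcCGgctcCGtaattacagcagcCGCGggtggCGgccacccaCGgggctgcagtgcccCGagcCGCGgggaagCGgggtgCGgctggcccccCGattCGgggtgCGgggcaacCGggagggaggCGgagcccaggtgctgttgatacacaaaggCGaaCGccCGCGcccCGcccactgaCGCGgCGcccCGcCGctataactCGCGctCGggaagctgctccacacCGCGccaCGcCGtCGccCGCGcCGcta
Slc3a2 (chr19:8713848-8714147, minus strand): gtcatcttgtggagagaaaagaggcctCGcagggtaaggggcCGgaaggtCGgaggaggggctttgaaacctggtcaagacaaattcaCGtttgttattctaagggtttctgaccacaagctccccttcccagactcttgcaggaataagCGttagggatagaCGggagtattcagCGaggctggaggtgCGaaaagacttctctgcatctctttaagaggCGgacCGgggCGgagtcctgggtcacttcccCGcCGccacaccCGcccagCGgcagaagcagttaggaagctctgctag
Slc15a1 (chr14:121505205-121505504, minus strand): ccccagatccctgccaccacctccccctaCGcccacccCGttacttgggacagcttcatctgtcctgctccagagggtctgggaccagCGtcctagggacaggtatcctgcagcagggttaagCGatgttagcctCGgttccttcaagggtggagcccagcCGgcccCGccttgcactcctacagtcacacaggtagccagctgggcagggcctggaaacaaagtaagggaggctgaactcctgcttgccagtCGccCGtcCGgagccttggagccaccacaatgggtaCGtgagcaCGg
Slc6a14 (chrX:21714650-21714949, plus strand): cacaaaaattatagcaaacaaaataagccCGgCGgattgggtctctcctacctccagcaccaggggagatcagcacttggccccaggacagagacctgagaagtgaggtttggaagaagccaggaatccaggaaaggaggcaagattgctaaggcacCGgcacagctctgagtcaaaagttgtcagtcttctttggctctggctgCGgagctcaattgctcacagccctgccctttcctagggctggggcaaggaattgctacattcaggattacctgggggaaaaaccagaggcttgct

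These windows held 41 CpG for Slc38a2, 15 for Slc3a2, 12 for Slc15a1 and 4 for Slc6a14. RefSeq entries were matched for 7 of the 10 members, with 9 windows in all, and not for Slc38a1, Slc38a3 and Slc7a5. The windows of Slc7a8, at most 3 counts in any library, held 20 CpG, those of Slc6a19 held 4, and each of the 3 windows of Slc38a4 held 5. Over the table, the richest window of a gene had a median of 23 CpG for the 9263 genes that reached 1 CPM throughout and of 3 CpG for the 5386 genes with a count of 0 throughout. By these windows the members did not follow one order, since Slc7a8 had more CpG than Slc3a2 and almost no counts. The windows are not alike, however: that of Slc7a8 is at the 5′ end of its gene and that of Slc3a2 is inside its gene. The window of Slc6a19 and some of those of Slc38a4 also lie inside their genes. The letters TGATGNAA, searched on both strands as the core of the element that ATF4 binds, were in 0 of the 9 windows and in 3.97% of all 32851 windows.

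Levels of the 10 members fell into 3 tiers. Slc38a2, Slc38a1 and Slc3a2 stood highest, Slc7a5 and Slc6a19 had a few CPM, and the other 5 were at or close to the limit of detection. The first 3 made up 98.3% ± 0.083 (SD, n = 6) of the summed level of the members, which was 369.8 ± 31.4 CPM (SD, n = 6).

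Slc38a2 encodes SNAT2, a system A carrier of small neutral amino acids that many cells raise when amino acids run short. It lies on chromosome 15 of GRCm38, from 96687392 to 96699730 on the minus strand (ENSMUSG00000022462). On plate 1 it had 167, 145 and 189 CPM in replicates 1, 2 and 3, and on plate 2 it had 179, 142 and 173 CPM in the low-depth, mid-depth and high-depth libraries. The mean of 166 ± 18.7 CPM (SD, n = 6) exceeded that of 96.4% of detected genes, those with any count. The plates overlapped, and the lowest library of each was 145 and 142 CPM.

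Slc38a1 encodes SNAT1, the related carrier for which glutamine is a main substrate. Its gene (ENSMUSG00000023169, chromosome 15, 96571418 to 96642913, minus strand) is 44.5 kb from Slc38a2. Levels were 95.5, 96.8 and 106 CPM on plate 1 and 109, 80.2 and 118 CPM on plate 2, in the same order of libraries. The mean was 101 ± 13.1 CPM (SD, n = 6), and the mid-depth library was again the lowest of the 6. Slc38a2 exceeded Slc38a1 in 6 of 6 libraries, by 1.46-fold to 1.78-fold, or 0.71 ± 0.12 on the log2(CPM + 1) scale (SD, n = 6, exact two-sided sign-flip permutation p = 0.03125, adjusted p = 0.0426 over the 45 pairs of members). That p is the smallest that 6 libraries can give.

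Slc38a4, which encodes a further system A carrier known from liver and placenta, lies 295.1 kb beyond Slc38a2 on the same strand (ENSMUSG00000022464, 96994820 to 97055956) and had a count of 0 in all 6 libraries. Slc38a3 encodes SNAT3, a system N carrier of glutamine, histidine and asparagine in liver, kidney and astrocytes, and is on the minus strand of chromosome 9, from 107650634 to 107669530 (ENSMUSG00000010064). It had 1, 3 and 1 counts on plate 1 and 3, 7 and 0 counts on plate 2, so only the mid-depth library was above the limit of 3 counts. Within the SLC38 family the expression in these cells was therefore concentrated in Slc38a1 and Slc38a2, with 78.1% ± 6.77 (SD, n = 6) of the summed level of the 11 family members. This share was 78.6% to 82.0% in 5 libraries and 64.5% in the mid-depth library, in which Slc38a10 was also highest.

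**Figure D1:**
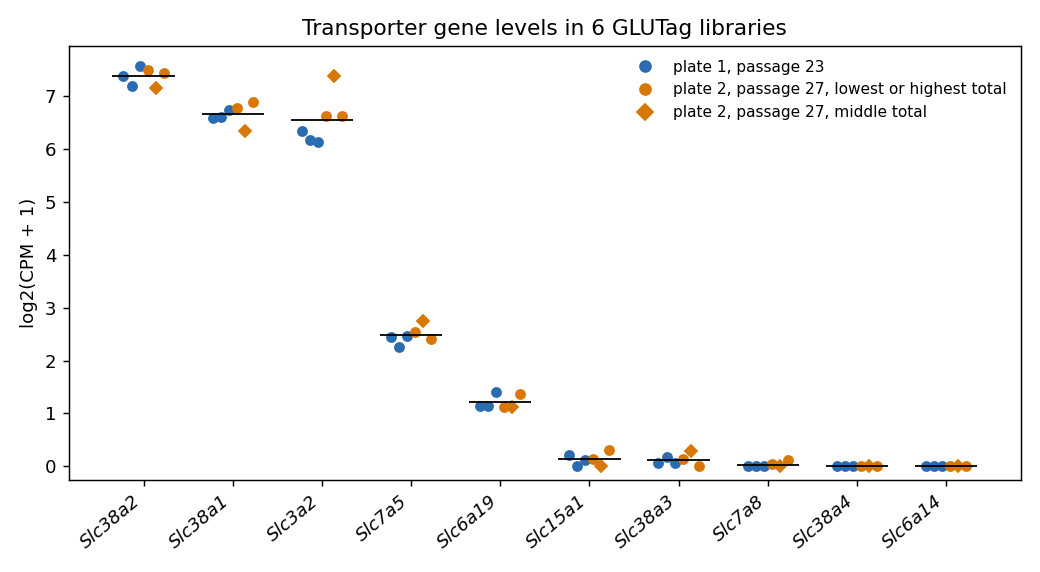
Level of each member in each library as log2(CPM + 1), with a line at the mean of the 6 libraries. Points are plate 1 and plate 2 libraries and the diamond is the mid-depth plate 2 library. Slc38a2, Slc38a1 and Slc3a2 lie far above the rest, and the diamond is the highest point for Slc3a2, at 166 CPM, and the lowest for Slc38a1, at 80.2 CPM.

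Slc3a2 encodes the CD98 heavy chain, which carries the light chains to the plasma membrane and does not transport amino acids itself. The gene is on chromosome 19, from 8706882 to 8723369 on the minus strand (ENSMUSG00000010095). Levels were 79.6, 71.4 and 69.6 CPM on plate 1 and 97.4, 166 and 97.5 CPM on plate 2. The mean was 97.0 ± 36.1 CPM (SD, n = 6), and it was 83.1 ± 13.6 CPM (SD) over the 5 libraries without the mid-depth one. Slc3a2 was not separated from Slc38a1, its neighbour in level: Slc38a1 was higher in 5 of 6, with a log2 difference of 0.11 ± 0.59 (SD, n = 6, exact permutation p = 0.719, adjusted p = 0.752). This difference was 0.35 without the mid-depth library, 0.43 on plate 1 alone and -0.20 on plate 2 alone, values that were not tested. Nor was Slc3a2 separated from Slc38a2, at 0.83 ± 0.56 (SD, n = 6, exact permutation p = 0.0625, adjusted p = 0.0781), again with the opposite direction in the mid-depth library.

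Slc7a5 encodes LAT1, the light chain that exchanges glutamine for leucine and other large neutral amino acids, and is on chromosome 8, from 121881150 to 121907694 on the minus strand (ENSMUSG00000040010). It had 4.46, 3.76 and 4.49 CPM on plate 1 and 4.84, 5.73 and 4.30 CPM on plate 2, with a mean of 4.60 ± 0.657 CPM (SD, n = 6). These levels rest on 85 to 177 counts per library and overlap between the plates. Its heavy chain Slc3a2 was 15.5-fold to 29.1-fold higher in the same library, a log2(CPM + 1) difference of 4.07 ± 0.33 (SD, n = 6, exact permutation p = 0.03125, adjusted p = 0.0426). Slc7a8, which encodes LAT2, the light chain of kidney and intestinal epithelium with a wider range of substrates (ENSMUSG00000022180, chromosome 14, 54722209 to 54781946, minus strand), had 1 count in the low-depth and 3 counts in the high-depth plate 2 library and none in the others.

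The other light chains known to pair with the CD98 heavy chain were read for comparison. Slc7a6, which encodes y+LAT2, an exchanger of cationic for neutral amino acids, was the highest of them, with 9.42, 7.997 and 9.72 CPM on plate 1 and 12.6, 18.5 and 13.9 CPM on plate 2. It was 2.11-fold to 3.24-fold above Slc7a5 in each of the 6 libraries, a comparison made after the values were seen and not tested. Slc7a11, the cystine-glutamate exchanger, had 1.53 ± 0.104 CPM, Slc7a7 had 1.40 ± 0.396 CPM (each SD, n = 6), and Slc7a10 had a count of 0. Summed over these 6 genes, the light chains had 19.6 ± 4.83 CPM, and Slc3a2 was 4.88 ± 0.639 times that sum (each SD, n = 6). The ratio ranged from 4.11 to 6.00, with the highest value in the mid-depth library.

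**Figure D2:**
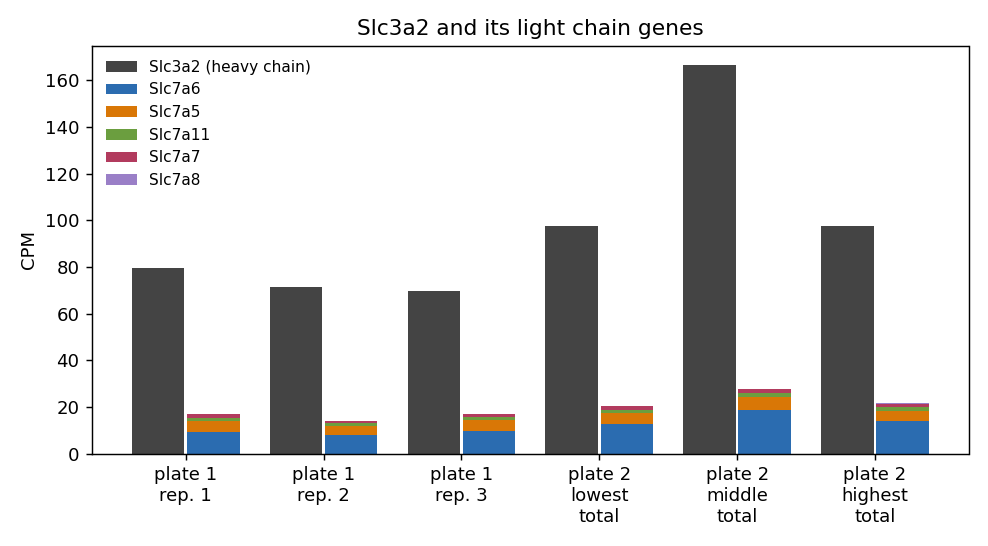
CPM of Slc3a2 (dark bars) beside the stacked CPM of its light chain genes in each library. Slc7a10 had no count and is not drawn. In each library the heavy chain is between 4.11 and 6.00 times as high as the stack, and Slc7a6 is its largest part.

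Of the members known from the brush border or apical membrane of the gut, Slc15a1, Slc6a19 and Slc6a14, the detection limit was passed in every library by Slc6a19 alone. Slc6a19 encodes B0AT1, the main sodium-dependent carrier of neutral amino acids in small intestine and kidney (ENSMUSG00000021565, chromosome 13, 73679745 to 73704865, minus strand). It had 1.21, 1.19 and 1.64 CPM on plate 1 and 1.18, 1.16 and 1.59 CPM on plate 2, from 27 to 58 counts. The mean of 1.33 ± 0.222 CPM (SD, n = 6) was under that of Slc7a5 in 6 of 6 libraries, with a log2(CPM + 1) difference of 1.26 ± 0.24 (SD, n = 6, exact permutation p = 0.03125, adjusted p = 0.0426). The annotation places Slc6a19os on the opposite strand within its span, and that gene had a mean of 0.032 CPM. Cltrn, which encodes a protein known to bring B0AT1 to the surface in kidney, had 0.113 ± 0.0906 CPM (SD, n = 6).

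Slc15a1, the gene of PEPT1, had 4, 0 and 2 counts on plate 1 and 3, 0 and 9 counts on plate 2 (ENSMUSG00000025557, chromosome 14, 121459621 to 121505252, minus strand). Only 2 libraries were above 3 counts, and its mean was 0.102 ± 0.0959 CPM (SD, n = 6). The limits of 0.0822 to 0.140 CPM hold for a single library without a count and do not apply to this mean. Slc6a14 encodes ATB0,+, a carrier of neutral and cationic amino acids in colon, lung and mammary gland (ENSMUSG00000031089, chromosome X, 21714896 to 21742355, plus strand), and had a count of 0 in all 6 libraries. At this depth Slc6a14 and Slc38a4 thus had no count at all. Slc15a1, Slc38a3 and Slc7a8 had a few counts in some libraries and were not above 3 counts in every library.

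In the order of mean levels, 4 of the 9 neighbouring pairs were separated beyond the spread between libraries, by the exact sign-flip test with Benjamini-Hochberg adjustment over 45 pairs. They were Slc38a2 over Slc38a1, Slc3a2 over Slc7a5, Slc7a5 over Slc6a19, and Slc6a19 over Slc15a1, the last with a log2(CPM + 1) difference of 1.08 ± 0.12 (SD, n = 6, exact permutation p = 0.03125, adjusted p = 0.0426). Slc38a1 and Slc3a2 were not separated, and neither were the 5 members at the limit among themselves. In all, 33 of the 45 pairs passed, each with the same gene higher in 6 of 6 libraries. For a pair with one of the 5 members at the limit this says little more than that its partner was detected. The test does not take into account that libraries of a plate may share a culture.

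The members were next set beside 45 other carriers of amino acids and peptides. Of the 10 members 5 reached 1 CPM throughout, and of the 45 other carriers 21 did, against 22.8% of all genes in the table. None of the 45 had a mean above those of Slc38a2, Slc38a1 and Slc3a2, an order of means that was not tested. Next came Slc7a14 with 71.2 ± 10.2 CPM and Slc7a1, the carrier of arginine and lysine, with 63.7 ± 10.5 CPM (each SD, n = 6). Of the other 14 genes of SLC3 and SLC7, 6 had at least 1 CPM throughout, Slc7a4 with 24.6 ± 8.10 CPM among them, and Slc7a10 and Slc7a12 had no count.

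In the SLC38 family, Slc38a10 had 54.6 ± 20.8 CPM, Slc38a9, the lysosomal arginine sensor of mTORC1, had 10.6 ± 2.64 CPM, Slc38a6 had 8.12 ± 1.95 CPM and Slc38a7 had 1.64 ± 0.384 CPM (each SD, n = 6). For peptides, Slc15a4, a proton-coupled carrier of histidine and peptides in endolysosomes, had 29.1 ± 9.52 CPM (SD, n = 6). The peptide carrier of kidney, Slc15a2, had 0.0532 ± 0.117 CPM (SD, n = 6), Slc15a5 at most 1 count and Slc15a3 none, so that no SLC15 carrier of the plasma membrane was detected in every library. Slc1a5, which encodes the glutamine exchanger ASCT2, had 21.9 ± 4.93 CPM, and Slc16a10, a carrier of aromatic amino acids, had 24.9 ± 5.46 CPM (each SD, n = 6). Slc36a4 had 17.6 ± 4.22 CPM and Slc36a1, a proton-coupled carrier, 15.2 ± 4.94 CPM (each SD, n = 6), while Slc36a3 had no count. From SLC6, Slc6a15 had 21.1 ± 11.4 CPM, Slc6a17 13.2 ± 4.10 CPM, the glycine carrier Slc6a9 2.98 ± 0.966 CPM and Slc6a20b 0.325 ± 0.156 CPM (each SD, n = 6).

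**Figure D3:**
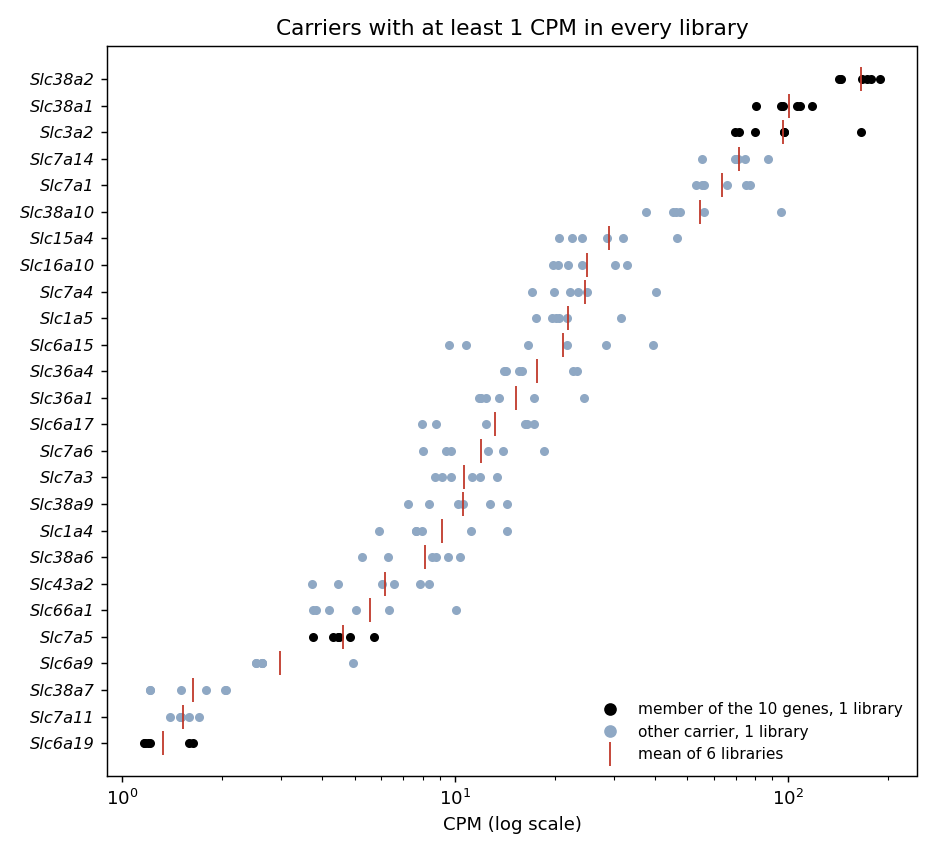
CPM on a log scale in each of the 6 libraries for the 26 carriers with at least 1 CPM throughout, the 5 members in black and the other 21 in blue, with a red mark at the mean. Slc38a2, Slc38a1 and Slc3a2 head the order, and Slc7a5 and Slc6a19 lie near its end.

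The plates were then compared, the only labelled difference between libraries. By edgeR's quasi-likelihood test with TMM scaling, 29 of 15669 genes had an adjusted p under 0.05, or 0.185% of those tested, 0.0128% higher and 0.172% lower on plate 2. Of the members, 5 passed the filter on low counts, the same 5 as above, and 0 of them passed the test. None of the 5 had an unadjusted p under 0.05 in edgeR, against 16.1% of all genes tested, and DESeq2 and limma-voom also called 0 of them.

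Slc3a2 differed most of the 5, by 0.45 on the log2 scale (SE 0.22, edgeR adjusted p = 0.368). Its plates did not overlap, with plate 2 higher in CPM, as for 35.2% of all genes tested, and in TMM-scaled CPM, as for 12.8%. The scaled values were 86.9, 80.6 and 74.6 on plate 1 and 87.4, 154 and 88.7 on plate 2, so that only the mid-depth library was clear of plate 1. Without that library the difference was 0.10 (SE 0.10, edgeR adjusted p = 0.593), and this omission moved the number of genes called from 29 to 1911.

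For Slc38a2 the log2 fold change was -0.29 (SE 0.13, edgeR adjusted p = 0.312). After TMM scaling it was 182, 163 and 203 CPM on plate 1 and 160, 132 and 157 CPM on plate 2, which did not overlap, as for 12% of all genes in this direction. By CPM of the library total, the same gene overlapped between the plates, and its log2 fold change without TMM was -0.02. Slc38a1 gave -0.23 (SE 0.15, edgeR adjusted p = 0.490), Slc7a5 -0.04 (SE 0.21, adjusted p = 0.956) and Slc6a19 -0.30 (SE 0.33, adjusted p = 0.711), and their plates overlapped on both scales. Without the mid-depth library, Slc38a1 was at -0.12 and Slc7a5 at -0.20. With no scaling beyond the library total, the median of all genes shifted from 0.03 to 0.30, and Slc38a1 at 0.04 and Slc7a5 at 0.23 changed sign, both still under that median.

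**Figure D4:**
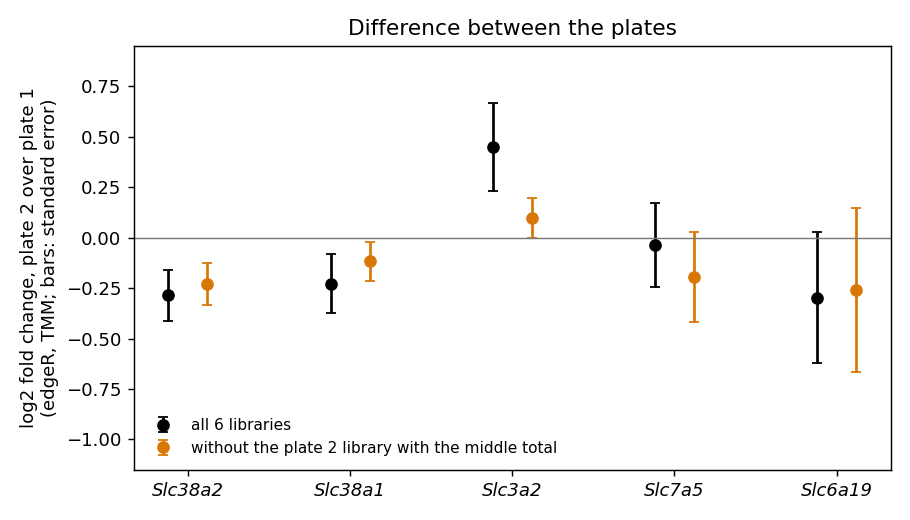
Log2 fold change of plate 2 over plate 1 for the 5 members that passed the filter, from edgeR with TMM scaling, with bars of 1 standard error, for all 6 libraries (black) and without the mid-depth plate 2 library (orange). Slc3a2 is at 0.45 with all libraries and at 0.10 without that one.

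Of the other 45 carriers, 23 were tested between the plates and 0 passed by edgeR, DESeq2 or limma-voom. An unadjusted p under 0.05 was found for 2 of them, Slc6a17 at 0.52 on the log2 scale (SE 0.18, edgeR adjusted p = 0.211) and Slc7a6 at 0.47 (SE 0.19, edgeR adjusted p = 0.267). Both passed when no scaling beyond the library total was used, where 8.87% of all genes were called higher and 0.453% lower on plate 2. The log2 fold change was above 0 for 20 of the 23, with a median of 0.24, and for 1 of the 5 members, with a median of -0.23. Over all genes tested it was above 0 for 8481 of 15669, with a median of 0.03.

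In the mid-depth library some members were at their highest level of all libraries and others at their lowest. In it the CPM of Slc3a2 was 2.00 times the mean of the other 5 libraries, which lay between 69.6 and 97.5 CPM. Of 8342 genes with an annotated coding transcript and 10 CPM or more on average, 29 had a log2 ratio of CPM + 1 as high or higher, or 0.348%, Slc3a2 itself included. Slc7a5 was also highest in this library, at 1.31 times the mean CPM of the others, as was 33.5% of all genes tested. Slc38a1 at 0.763 times, Slc38a2 at 0.835 times and Slc6a19 at 0.856 times that mean were each lowest in it, as were 19.3% of all genes.

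Ratios in this library went with base composition at the transcript end. When the 8342 genes were put into 10 equal classes by GC over their last 200 bases, the median log2 ratio of CPM + 1 was -0.30 in the class lowest in GC and 0.37 in the highest. Slc3a2 had 44.5% GC there, in a class of 834 genes with a median of 0.22, of which 4, itself included, were at or above its 0.99. Slc38a1 had 33% GC, in a class with a median of -0.04, and stood at -0.39. Slc38a2 had 38% GC, in a class with a median of 0.09, and stood at -0.26. The part of GC content in these values was not tested. Of the 11 enteroendocrine markers, 5 were highest and 3 lowest of the 6 libraries in this one, against 33.5% and 19.3% of all genes tested. Insm1 was farthest from the rest, with 45.1 CPM against 159 to 291 CPM elsewhere, followed by Scg2 with 32.1 CPM against 62.4 to 124 CPM. Among the higher ones, Chgb had 708 CPM against 453 to 596 CPM. Their part in the carriers' values was not tested.

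Over the 28 carriers that averaged 1 CPM or more, members included, 15 were highest of the 6 libraries in the mid-depth one, or 53.6%, and 5 were lowest, or 17.9%. Over all genes tested, which had no such minimum level, the shares were 33.5% and 19.3%. The difference was not tested. The highest ratios beside Slc3a2 were those of Slc38a10, with a log2 ratio of CPM + 1 of 1.02, and of Slc66a1, the lysosomal exporter of cationic amino acids, with 0.98. Slc15a4 stood at 0.84, Slc7a6 at 0.73 and Slc1a5 at 0.64. Slc6a15 was the lowest, at -1.20, with 9.61 CPM against 10.8 to 39.4 CPM in the others.

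**Figure D5:**
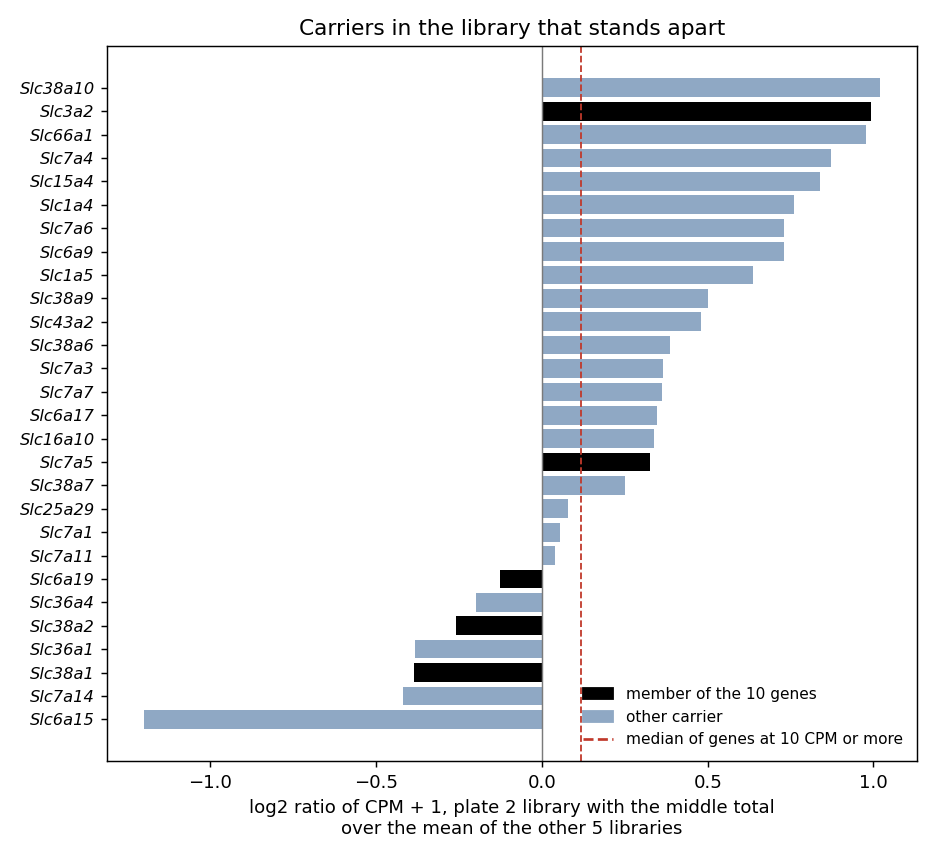
Log2 ratio of CPM + 1 in the mid-depth plate 2 library (the middle total) over the mean of the other 5 libraries for 28 carriers, members in black, with a dashed line at the median of the 8342 genes at 10 CPM or more, 0.12. Slc3a2 lies at the upper end, at 0.99, and Slc38a1 and Slc38a2 are below 0, at -0.39 and -0.26.

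Profiles over the 6 libraries were compared by the root mean square difference of centred log2(TMM-scaled CPM + 1), a description over libraries of one condition. Slc38a1 and Slc38a2 differed by 0.114 from each other, where the median over 8657 genes was 0.278 for Slc38a1 and 0.272 for Slc38a2. Slc3a2 was 0.537 from Slc38a1 and 0.510 from Slc38a2, against a median of 0.373. The nearest genes were Aagab (0.0269) and Ccdc90b (0.0351) to Slc38a1, Map3k12 (0.0412) and Aktip (0.0413) to Slc38a2, and Cdhr5 (0.0659) and Ttc13 (0.0660) to Slc3a2.

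ATF4, the transcription factor of the amino acid response, is known to act on Slc3a2, Slc7a5 and Slc38a2, and 15 genes of that response were read for this reason. Of these, 14 reached 1 CPM throughout. In the mid-depth library 9 of the 15 were highest of the 6 libraries and 0 lowest, against 33.5% and 19.3% of all genes tested, and their part in the level of Slc3a2 there was not tested. Atf4 itself had 214, 215 and 223 CPM on plate 1 and 274, 313 and 267 CPM on plate 2. After Atf4, the highest of the 15 were Mthfd2 with 207 ± 31.0 CPM, Psat1, of serine synthesis, with 186 ± 11.2 CPM and Asns, the asparagine synthetase, with 90.3 ± 8.68 CPM (each SD, n = 6). Between the plates 0 of the 15 passed the edgeR test, with 1 at an unadjusted p under 0.05, Ddit4, at -0.52 on the log2 scale (SE 0.15, edgeR adjusted p = 0.153), and 7 of 15 had a log2 fold change above 0. DESeq2 and limma-voom also called 0 of them. Without the mid-depth library, edgeR called 7.83% of 15894 genes lower and 4.2% higher on plate 2. Of the 15 genes 4 were called lower, Asns at -0.37 (adjusted p = 0.0432), Ddit4 at -0.66 (adjusted p = 0.00358), Phgdh at -0.56 (adjusted p = 0.0492) and Psat1 at -0.33 (adjusted p = 0.0265). Of the 11 enteroendocrine markers, Chga at -0.53 (adjusted p = 0.00149) and Cck at -0.87 (adjusted p = 0.0131) were called lower and Pcsk1 at 0.45 (adjusted p = 0.0288) higher in the same edgeR fit, and 0 members were called.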

How the data were processed

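RNA was measured in 6 libraries of GLUTag cells (QuantSeq 3′ kit, forward). The authors trimmed the reads (Trim Galore 0.6.4), and assigned them with Salmon 1.5.1 to transcripts and decoys of GRCm38 (GENCODE release M23) with no length correction. The deposited table holds expected counts, summed by gene and not normalized, with 21399987 to 36488198 per library. Strand settings are not given in the sources used here.

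CPM was taken over the library total. For edgeR 4.0.16, counts were rounded, filtered by filterByExpr and scaled by TMM, and the quasi-likelihood test with robust dispersion was adjusted over all genes (Benjamini-Hochberg). DESeq2 1.42.0, limma 3.58.1 (voom), other filters and scalings, pseudocounts of 0.1 and 5 CPM and the omission of each library were alternatives. The steps were tested on simulated data. Pairs of members were compared by their difference in log2(CPM + 1) in each library, with all sign flips enumerated (exact permutation test, two-sided). Positions are from GENCODE M21 on GRCm38, which held 54107 of 54281 identifiers, and all 120 listed genes were found. Libraries of a plate were not duplicates, since their chi-square per gene was 10.6 or more.

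The members and gene lists were chosen with earlier results of these data known. Named were all members, the highest 4 of each list, genes without a count, genes past the plate test and the 2 most like profiles. Values of Slc7a11, Slc7a7, Ddit4, Phgdh, Pcsk1, Chga, Insm1, Castor1, Castor2, Scg2, Chgb, Slc66a1 and Glul, and those for other genes in the mid-depth library, were chosen after they were seen. Some listed genes are not reported here.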

Additional observations from a re-analysis of the deposited data

Results flagged for a closer look

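Of the 84 members and listed genes that averaged 10 counts or more, 9 had a library far from the other 5 of this single condition. The measure was the gap to its neighbour over the whole range. Its nominal rate is about 1 in 20, but the share over all genes was not computed, so the 9 are not read as an excess. In 8 of the 9 genes the library was the mid-depth one of plate 2, as their highest. That library was the highest of 6 for 33.5% of all genes tested. Slc3a2 had 166 CPM there, against 69.6 to 97.5 CPM in the others (ratio of gap to range 0.711). Slc38a10 had 95.3 CPM, against 37.6 to 56.3 CPM (0.676), and Slc1a5 had 31.5 CPM, against 17.5 to 21.7 CPM (0.699). Slc7a4 had 40.1 CPM, against 17.1 to 24.9 CPM (0.659), and Slc6a9 had 4.95 CPM, against 2.52 to 2.64 CPM (0.952). Outside the carriers, Got2, an enzyme of aspartate metabolism, had 109.9 CPM, against 80.7 to 88.9 CPM (0.718), and Psat1 had 207 CPM, against 176 to 187 CPM (0.639). Chga, an enteroendocrine marker, had 290.2 CPM, against 186 to 222 CPM (0.654). These 8 values come from 1 library and are not independent of each other. The exception was Fev, a transcription factor read as an enteroendocrine marker, with 38.6 CPM in replicate 3 of plate 1 and 43.1 to 44.7 CPM in the others (0.726).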

How the results depend on the processing

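Each member kept its mean level within 1 SD under TMM scaling, DESeq2's size factors, a total without mitochondrial genes and the omission of each library, the last being fixed by the arithmetic. The 33 separated pairs stayed 33 with pseudocounts of 0.1 and 5 CPM and with TMM, where neither can change which gene of these pairs is higher. The size of a log2 difference with a low gene did depend on the pseudocount. For Slc6a19 over Slc15a1 it was 1.08, and 2.95 and 0.31 with pseudocounts of 0.1 and 5 CPM. For Slc7a5 over Slc6a19 it was 1.26, and 1.72 and 0.60 with these. With 5 libraries the smallest p is 0.0625, so omissions gave no test there. No member passed the plate test in any of the fits run, and the lowest adjusted p of a member was between 0.068 (no scaling beyond the total, Slc3a2) and 0.58. The sign changed for Slc38a1 (0.0403) and Slc7a5 (0.227) without scaling beyond the total, and for Slc7a5 over the omissions, from -0.197 without the mid-depth to 0.0573 without the high-depth library. None of these values was past the threshold. Without scaling beyond the total, where 1461 of 15669 genes were called, so were Slc7a6 and Slc6a17 of 23 other carriers tested, 1 of 15 genes of the ATF4 response, 3 of 8 of glutamine and alanine metabolism, 4 of 17 of mTORC1 and Pcsk1 of 11 enteroendocrine markers, the last also without a filter on low counts (0.573, adjusted p = 0.0169).

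The number of genes called between plates was 29 (2 higher and 27 lower on plate 2). It was 1461 without scaling beyond the total (1390 higher, 71 lower), 579 with DESeq2 (154 higher, 425 lower), 10 with limma-voom, 545 without a filter (255 higher, 290 lower) and 18 without robust dispersion. Over the omissions of 1 library it lay between 0 and 1911: it was 0 without replicate 1 or the low-depth plate 2 library, where 1611 and 2121 genes had an unadjusted p under 0.05. It was 2 and 6 without replicates 2 and 3, 9 without the high-depth and 1911 without the mid-depth library. The cause was not tested. No paired analysis was possible because the titles number the libraries across both plates. The deposited columns restart their numbers on plate 2, and these numbers match no title there, so they were not used to pair wells. Counts below about 3 limit what can be said of Slc15a1, Slc38a3, Slc38a4, Slc7a8 and Slc6a14.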

Other observations

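Genes of glutamine and alanine metabolism were read beside the carriers. All 8 had at least 1 CPM in every library. Got1, the cytosolic aspartate aminotransferase, had 282 ± 56.3 CPM, its mitochondrial counterpart Got2 89.2 ± 10.7 CPM and glutamate dehydrogenase, Glud1, 75.2 ± 20.5 CPM (each SD, n = 6). Glutamine synthetase, Glul, had 71.3 ± 4.63 CPM (SD, n = 6). Between the plates 0 of the 8 passed the edgeR test, and 3 had an unadjusted p under 0.05, as had 16.1% of all genes tested. They were Glud1 at 0.45 on the log2 scale (SE 0.11, edgeR adjusted p = 0.122), Gpt2 and Got1. DESeq2 and limma-voom also called 0. Without the mid-depth library Glud1 was called higher on plate 2, at 0.38 (edgeR adjusted p = 0.0233), as were 4.2% of all genes in that fit.

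Of 18 genes through which amino acids act on mTORC1, 17 had at least 1 CPM in every library. The highest were Rraga with 214 ± 20.4 CPM, Lamtor1 with 161 ± 15.3 CPM, Fnip1 with 70.7 ± 6.93 CPM and Rragc with 53.0 ± 9.88 CPM (each SD, n = 6). The arginine sensor gene Castor1 had 0.129 ± 0.0939 CPM, and Castor2 had 37.1 ± 3.86 CPM (each SD, n = 6). Of the 17 tested, 0 passed between the plates by edgeR, DESeq2 or limma-voom, and 4 had an unadjusted p under 0.05 in edgeR, against 16.1% of all genes tested.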
